A study of Mus musculus with 4 samples.

Results

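The 10 genes described here, Cd69, Egr1, Egr2, Egr3, Nr4a1, Cd5, Id3, Nab2, Nfkbid and Itm2a, are switched on or raised in thymocytes by signals through the T cell receptor (TCR) during positive selection. They were chosen by gene name, and every probe of the array carrying one of these names was taken, which gave 11 probes among 41157 with a value on every array. Each of the 10 genes was among the 13062 genes tested, 9 of them through their only probe. Each was well above background on all 4 arrays, so that none entered the test through one genotype alone.

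The RNA came from thymocytes at the CD4+CD8+ double-positive (DP) step, when the TCR is first tested against self peptides. The cells were sorted from untreated mice aged 6 to 12 weeks. All mice carried loxP-flanked alleles of Usp8, which encodes a deubiquitinase of endosomal sorting. The control genotype, USP8ff, had no Cre, and USP8ff_CD4Cre also carried Cre under Cd4 regulatory sequences, which act from the DP stage onward and in later T cells. The animals were littermates matched for sex, 8 in all, and each of the 2 arrays per genotype held RNA of 2 mice. No group had Cre without the loxP sites, so effects of Cre and of the deletion cannot be told apart. The USP8 protein was not measured here, so its loss is taken from the genotype. The comparison asks whether genes that report TCR signalling differ in DP cells between the 2 genotypes. Its p-values set each difference against the spread between pools, with each gene's variance drawn towards that of all genes.

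A DP thymocyte whose TCR binds self peptide weakly receives a survival and differentiation signal, and one that binds nothing dies. The signal runs through the Ras and ERK kinases, which act on serum response factor and its partners, through calcium and NFAT, and through NF-kB. Immediate early transcription factors of the Egr and Nr4a families respond first. Id3 and Nab2 lie downstream of them, and the surface levels of CD69 and CD5 are widely used as readouts of the signal.

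The 4 arrays lay on 1 slide, had 45.0% to 48.9% of probes well above background and no saturated spot. Signals are log2 values relative to the 75th percentile of the array, so 0 is the level of that percentile, and levels of different probes cannot be compared with each other. Usp8 itself stood at -0.23 and -0.40 in the USP8ff pools and at -1.03 and -1.23 in the USP8ff_CD4Cre pools. The difference of -0.81 ± 0.13 (SE) left 56.9% of the control signal, with an adjusted p of 0.60 in limma, the linear model fitted over all genes. All 10 DP markers were measured, with a summed linear signal of 1698 to 1803 over the 4 arrays, which the brightest genes set. Their median difference was -0.12, with 5 lower and 2 higher in USP8ff_CD4Cre without overlap of the genotypes and 0 past the adjusted threshold in limma. Among all genes tested 16.3% were lower and 24.3% higher without overlap. Cd4 had a log2 difference of -0.06 ± 0.10, and Cd8a one of 0.015 ± 0.13 that turned to -0.10 after quantile normalization. In bulk RNA of this kind, fewer cells of a type and less RNA per cell cannot be told apart.

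No difference between the genotypes was detected in any of the 10 genes. In limma with Benjamini-Hochberg adjustment, 0 of 10 passed an adjusted p of 0.05 and 0 of 10 reached an unadjusted p of 0.05. The smallest adjusted p among them was 0.71. Over all genes tested the share called was 0.0%, and 970 genes (7.43%) had an unadjusted p under 0.05, 518 higher and 452 lower in USP8ff_CD4Cre. With each array scaled to its median the split was 337 higher and 485 lower, and without USP8ff_CD4Cre replicate 2 the count was 418. The log2 differences of the 10 genes, USP8ff_CD4Cre minus USP8ff, lay between -0.33 and 0.19, with 4 positive and 6 negative and a median of -0.03, beside 0.02 over all genes tested.

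**Figure D1:**
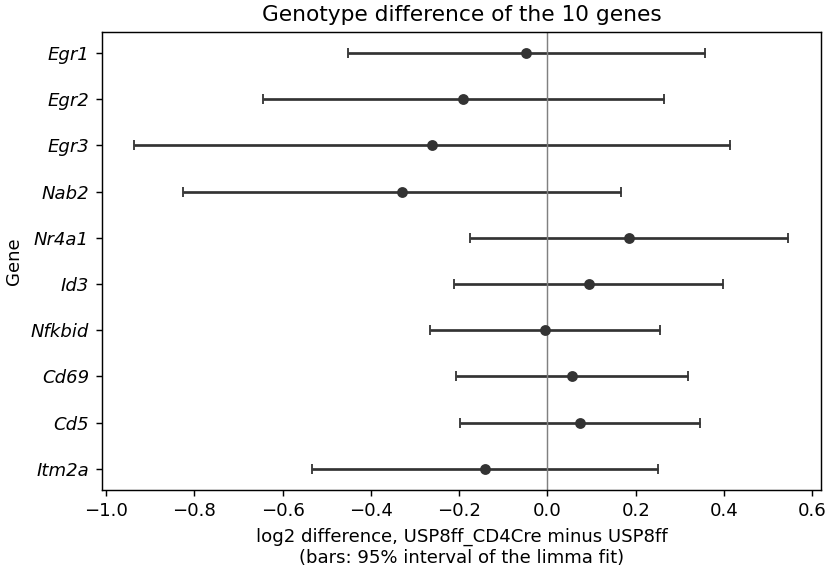
Genotype difference of each of the 10 genes on the log2 scale (points, USP8ff_CD4Cre minus USP8ff, 2 arrays per genotype) with its 95% interval from the limma fit (bars). All 10 intervals include 0, and that of Egr3 is the widest, from -0.94 to 0.41.

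The intervals give the sizes that these 4 arrays leave possible. For 7 of the 10 genes the whole 95% interval lay within 1.5-fold in either direction, and Egr2, Egr3 and Nab2 reached beyond it. The highest upper bound was 1.46-fold higher in USP8ff_CD4Cre, for Nr4a1. The farthest lower bound was 1.91-fold lower, for Egr3. The intervals are set per gene without adjustment and are not limits of detection. Usp8 itself, with a difference of -0.81, had an adjusted p of 0.60 in limma. With 2 pools per genotype, a lack of detection does not show that a difference is absent.

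The Egr genes encode zinc finger transcription factors that couple ERK and calcium signals to later target genes. Egr1, the first of them to be induced in many cell types, had signals of 3.22 and 3.44 in the USP8ff pools and of 3.44 and 3.12 in the USP8ff_CD4Cre pools. The 2 genotypes overlapped fully, with both extremes of the 4 arrays in USP8ff_CD4Cre. The difference was -0.05 ± 0.16 (SE; 95% interval -0.45 to 0.36; adjusted p = 0.95 in limma).

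Egr2, which acts with Egr3 in positive selection and in the formation of NKT cells, was read by a probe on chromosome 10 (mm9, 67004758 to 67004817) that is spotted 10 times on the array. Its mean signals were 2.66 and 2.94 in the USP8ff pools and 2.80 and 2.42 in the USP8ff_CD4Cre pools. The arrays in the middle came from 1 genotype each, so the groups overlapped. The repeated spots had SDs of 0.075, 0.081, 0.042 and 0.051 on these arrays in the same order, the third over 9 spots since 1 was an outlier. The 2 pools of USP8ff differed by 0.28 and those of USP8ff_CD4Cre by 0.38, several times the SD between spots of 1 array. The genotype difference was -0.19 ± 0.18 (95% interval -0.65 to 0.26; adjusted p = 0.81 in limma).

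**Figure D2:**
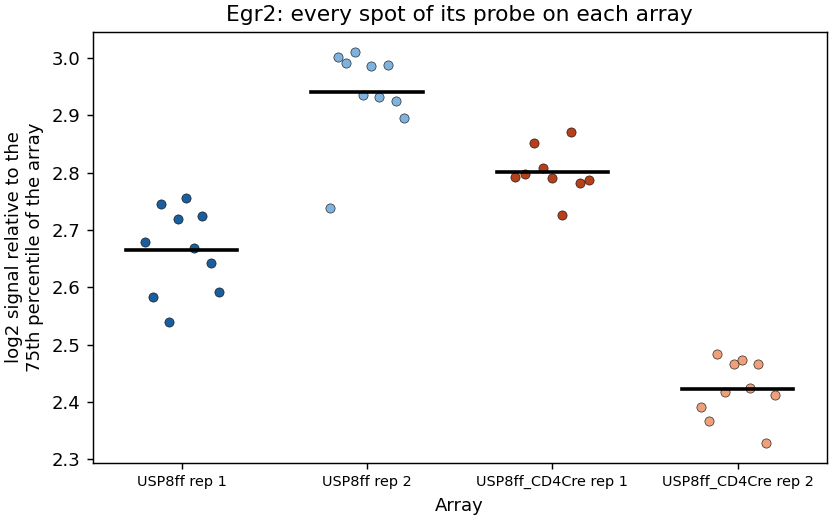
Log2 signal of every spot of the Egr2 probe kept on each array, relative to the 75th percentile of the array (points), with the mean of the spots (bars), for the 2 arrays of each genotype. The spots of USP8ff_CD4Cre replicate 2, with a mean of 2.42, lie below those of the other 3 arrays, and USP8ff replicate 2 has the highest mean, 2.94.

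Egr3, the third inducible member, had 2 probes. The first (mm9, chromosome 14, 70481979 to 70482038) gave signals of -2.88 and -2.56 in the USP8ff pools and of -2.63 and -3.34 in the USP8ff_CD4Cre pools. These are dim: the lowest signal well above background was -3.87 and -4.19 on the USP8ff arrays and -4.05 and -4.49 on the USP8ff_CD4Cre arrays. The groups overlapped, and the difference was -0.26 ± 0.26 (95% interval -0.94 to 0.41; adjusted p = 0.82 in limma). The second probe stayed below the level called well above background throughout, so it gave no fold and was not tested. The starts of the 2 probes lie 3152 bases apart. Only the second is assigned to a RefSeq transcript, so the Egr3 values rest on a dim probe without that assignment.

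The 3 Egr genes had the same arrays on the same sides. In each of them USP8ff replicate 2 and USP8ff_CD4Cre replicate 1 lay above the gene's own mean over the 4 arrays, and USP8ff replicate 1 and USP8ff_CD4Cre replicate 2 below it. This pattern was seen after the values were known and follows neither the genotype nor the replicate number. USP8ff_CD4Cre replicate 2 was the lowest array for all 3, at -0.18 for Egr1, -0.28 for Egr2 and -0.49 for Egr3 relative to the gene's mean. Without that array the differences were 0.11 for Egr1, -0.0018 for Egr2 and 0.095 for Egr3. Without USP8ff_CD4Cre replicate 1 instead, the differences were -0.21, -0.38 and -0.62 in the same order. With 2 pools per genotype, neither pool can be called the deviant one.

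**Figure D3:**
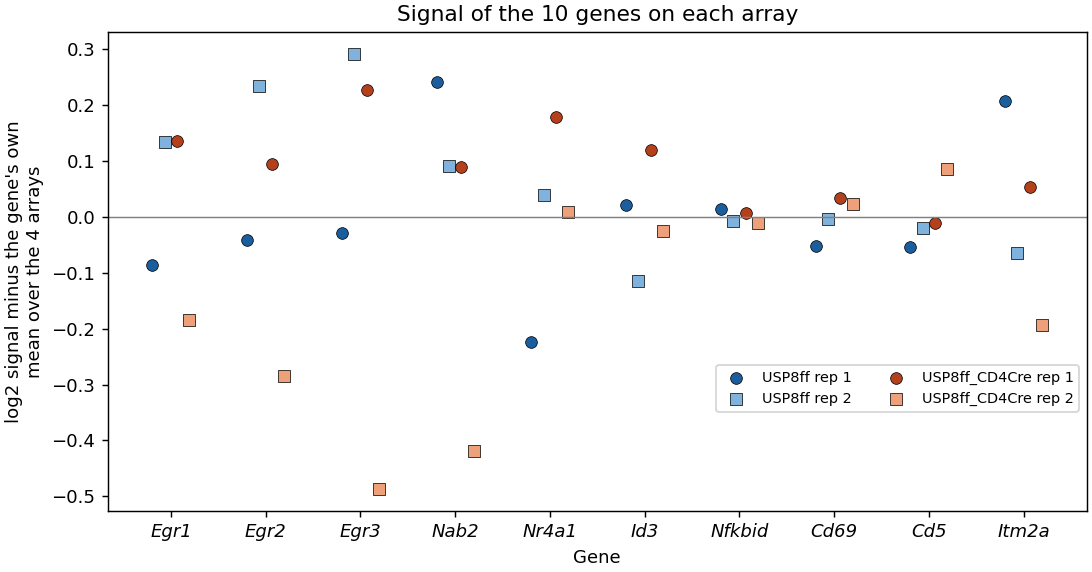
Log2 signal of the 10 genes on each of the 4 arrays, as the difference from the gene's own mean over the arrays (circles, replicate 1; squares, replicate 2; blue, USP8ff; orange, USP8ff_CD4Cre). Egr1, Egr2 and Egr3 share their high and low arrays, Nab2 has its lowest value, -0.42, on USP8ff_CD4Cre replicate 2, and the 4 Nfkbid values span 0.025.

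Nab2 encodes a corepressor that binds EGR1 and EGR2 and is itself induced by them. Its probe (mm9, chromosome 10, 127097981 to 127098040) gave 1.30 and 1.15 in the USP8ff pools and 1.15 and 0.64 in the USP8ff_CD4Cre pools. Both USP8ff_CD4Cre arrays were below both USP8ff arrays, a lack of overlap in this direction that 16.3% of all genes tested showed. The 2 middle values differ only beyond their second decimal, and USP8ff_CD4Cre replicate 2 stood apart from the other 3. The difference of -0.33 ± 0.19 was the most negative of the 10 genes (95% interval -0.83 to 0.17; unadjusted p = 0.15, adjusted p = 0.71 in limma). Without USP8ff_CD4Cre replicate 2 it was -0.076, and without USP8ff_CD4Cre replicate 1 it was -0.58.

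Nr4a1 encodes NUR77, an orphan nuclear receptor whose level in thymocytes follows TCR signal strength and which promotes the death of strongly signalled cells. Its probe (mm9, chromosome 15, 101105071 to 101105130) gave 4.90 and 5.16 in the USP8ff pools and 5.30 and 5.13 in the USP8ff_CD4Cre pools. USP8ff replicate 1 was the lowest array, and the other 3 lay within 0.17 of each other. The difference of 0.19 ± 0.14 was the most positive of the 10 (95% interval -0.18 to 0.55; adjusted p = 0.77 in limma). Without USP8ff replicate 1 it was 0.054, and without USP8ff replicate 2 it was 0.32.

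The promoters of Egr2 and Nr4a1 are shown because these 2 immediate early genes differed in which array was lowest, USP8ff_CD4Cre replicate 2 for Egr2 and USP8ff replicate 1 for Nr4a1. That choice followed the values, and in both genes the genotypes overlapped. Any bearing of the sequences on the arrays was not tested. Each line is the 250 bases before a transcription start in RefSeq (GRCm38.p6), chr10:67537619-67537868 on the plus strand for Egr2 and chr15:101266596-101266845 on the plus strand for Nr4a1. Capitals mark matches on either strand to the motifs searched.
Egr2: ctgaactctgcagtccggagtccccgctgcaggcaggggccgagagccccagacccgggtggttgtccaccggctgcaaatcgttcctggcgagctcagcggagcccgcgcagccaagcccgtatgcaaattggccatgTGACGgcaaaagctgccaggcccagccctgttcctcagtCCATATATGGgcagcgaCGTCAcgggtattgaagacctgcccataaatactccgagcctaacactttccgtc
Nr4a1: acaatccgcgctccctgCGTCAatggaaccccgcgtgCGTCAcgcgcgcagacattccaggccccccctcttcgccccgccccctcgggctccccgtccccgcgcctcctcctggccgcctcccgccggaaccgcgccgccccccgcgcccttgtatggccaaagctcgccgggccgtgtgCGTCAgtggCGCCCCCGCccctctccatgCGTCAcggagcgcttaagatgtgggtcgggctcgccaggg

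The motifs were the serum response element known as the CArG box, the EGR sites GCGGGGGCG and GCGTGGGCG, the cyclic AMP response element TGACGTCA and its core TGACG, the NF-kB sites GGGACTTTC and GGGAATTTC, and the E boxes CAGCTG and CACCTG. The core is part of TGACGTCA, and the 2 can overlap. The RefSeq promoter table matched 7 of the 10 genes, by 13 of its 32851 windows, and held no entry for Cd69, Egr1 and Egr3. In the printed Egr2 window the CArG box is CCATATATGG, from 72 to 63 bases before the start, and a CArG box occurred in 1.47% of all windows. Of the 7 genes, Egr2 was the one with a CArG box, which 4 of its 5 overlapping or neighbouring windows held. In the window that starts at 67537316 the CArG box was a different sequence, CCTTTTTTGG. Nr4a1 has a match to GCGGGGGCG on the opposite strand, printed as CGCCCCCGC, from 60 to 52 bases before the start, which 2.57% of windows held. The core TGACG was present in 5 of the 7 genes (Egr2, Nr4a1, Id3, Nfkbid and Itm2a). By windows it was in 7 of their 13, several of them overlapping windows of Egr2, and in 17.8% of all windows. The full TGACGTCA was present in Nfkbid, in 1 of the 13 windows, and in 1.55% of all windows. CACCTG occurred in Cd5, Nfkbid and Itm2a, in 3 of the 13 windows, and in 17.2% of all windows. No window of the 7 genes held GCGTGGGCG, GGGACTTTC, GGGAATTTC or CAGCTG, which 0.54%, 0.29%, 0.23% and 13.0% of all windows did. The Nab2 window held none of the motifs. A match is a run of letters and says nothing of binding.

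Id3 encodes an inhibitor of the E proteins, the helix-loop-helix factors that hold thymocytes at the DP stage, and it lies downstream of ERK and EGR1. Its probe (mm9, chromosome 4, 135700075 to 135700249) covers 175 bases of the genome with 60 bases of sequence, so it spans a splice junction and reads spliced transcript.
Id3, probe: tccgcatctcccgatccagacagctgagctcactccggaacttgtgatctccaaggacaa
The signals were 3.58 and 3.44 in the USP8ff pools and 3.68 and 3.53 in the USP8ff_CD4Cre pools. Values of the 2 genotypes alternated, and the difference was 0.09 ± 0.12 (95% interval -0.21 to 0.40; adjusted p = 0.86 in limma).

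Nfkbid encodes the atypical inhibitor IkBNS, which is induced by strong TCR signals and acts in the nucleus with NF-kB. Its probe (mm9, chromosome 7, 31212521 to 31212580) gave -1.47 and -1.50 in the USP8ff pools and -1.48 and -1.50 in the USP8ff_CD4Cre pools. All 4 arrays lay within 0.025 of each other, and the SD within genotypes, 0.014, was as low or lower in 1.05% of all genes. The difference was -0.0052 ± 0.10 (95% interval -0.27 to 0.26; adjusted p = 0.99 in limma). The SE exceeds the observed spread, since limma draws each gene's variance towards that of all genes.

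CD69 is a lectin-like surface protein that appears soon after TCR engagement and holds thymocytes back from leaving. The Cd69 probe (mm9, chromosome 6, 129217697 to 129217756) gave 1.60 and 1.65 in the USP8ff pools and 1.69 and 1.68 in the USP8ff_CD4Cre pools. The USP8ff_CD4Cre arrays were both higher, as for 24.3% of all genes tested, and the 4 arrays spanned under 0.1. The difference was 0.06 ± 0.10 (95% interval -0.21 to 0.32; adjusted p = 0.91 in limma).

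CD5 is a surface receptor that dampens TCR signals, and its level is set by the strength of self recognition. The Cd5 probe (mm9, chromosome 19, 10792701 to 10792760) gave 6.30 and 6.33 in the USP8ff pools and 6.34 and 6.44 in the USP8ff_CD4Cre pools. It was the other gene of the 10 with both USP8ff_CD4Cre arrays higher. The difference was 0.07 ± 0.11 (95% interval -0.20 to 0.35; adjusted p = 0.88 in limma), and after quantile normalization its sign turned, to -0.049.

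Itm2a encodes a type II membrane protein that marks thymocytes during positive selection. Its probe (mm9, chromosome X, 104592916 to 104592975) gave 3.96 and 3.69 in the USP8ff pools and 3.81 and 3.56 in the USP8ff_CD4Cre pools. The higher array of each genotype was replicate 1, and the genotypes overlapped. The difference was -0.14 ± 0.15 (95% interval -0.53 to 0.25; adjusted p = 0.84 in limma).

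Among the 10 genes, the larger gap between 2 pools of a genotype exceeded the genotype difference in 9, Cd69 being the exception. The same held for 72.7% of all genes tested. The SD within genotypes had a median of 0.17 over the 10 genes and of 0.12 over all genes. It was 0.39 for Egr3, a value that 5.24% of genes reached, 0.27 for Nab2 (13.4%) and 0.23 for Egr2 (17.8%). USP8ff_CD4Cre replicate 2 was the lowest array for 6 of the 10 genes and for 27.2% of all genes, and USP8ff_CD4Cre replicate 1 was the lowest for 0 of the 10 and for 14.1% of all genes. Of 17 listed genes that cell dissociation and sorting can induce, 12 were measured, and USP8ff_CD4Cre replicate 2 was the lowest array for 6 of them. Fos, Fosb, Ier3, Atf3 and Hspa1b did not pass the filter on dim probes. None of the 12 passed the adjusted threshold in limma, and their median difference was -0.01. In that list Socs3, a feedback inhibitor of cytokine signals, had a difference of -0.61 ± 0.14 and Hspa8, a chaperone gene, one of 0.42 ± 0.23. The Hspa8 value ran from 0.12 without USP8ff replicate 1 to 0.72 without USP8ff replicate 2. The part of this response in the values of the 10 genes was not tested.

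Relatives and partners of the 10 genes were set beside them. Of 15 listed, 12 were measured and Egr4, Nr4a3 and Id4 did not pass the filter on dim probes. None of the 12 passed the adjusted threshold in limma, their median difference was 0.00, and 1 was higher and 2 were lower at an unadjusted p under 0.05, which 7.43% of all genes reached. Bcl3, like Nfkbid an atypical IkB protein of the nucleus, had signals of -2.17 and -1.90 in the USP8ff pools and of -2.94 and -2.95 in the USP8ff_CD4Cre pools. Both USP8ff_CD4Cre values were lower, a difference of -0.92 ± 0.13 (adjusted p = 0.51 in limma) that was -0.55 with normexp background correction. Nr4a2, the second of the Nr4a receptors, had -3.64 and -3.67 in the USP8ff pools and -2.64 and -3.02 in the USP8ff_CD4Cre pools. It was higher in both USP8ff_CD4Cre pools (0.83 ± 0.16, adjusted p = 0.66 in limma), with the USP8ff signals close to the lowest that counted as well above background. With normexp background correction the Nr4a2 difference was 0.38. Id2, named after its values were seen, is the E protein inhibitor most like Id3 in function. It had 0.28 and 0.13 in the USP8ff pools and -0.28 and -0.78 in the USP8ff_CD4Cre pools, a difference of -0.74 ± 0.19 (adjusted p = 0.66 in limma) that was -0.49 without USP8ff_CD4Cre replicate 2. Nab1, the relative of Nab2, and Cd6, that of Cd5, are among the 9 others, none with an unadjusted p under 0.05.

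**Figure D4:**
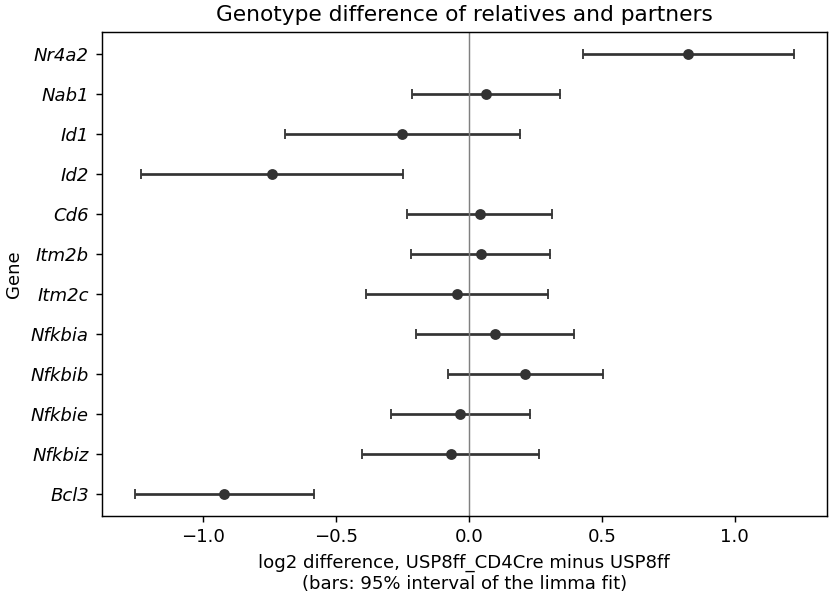
Genotype difference on the log2 scale (points, USP8ff_CD4Cre minus USP8ff, 2 arrays per genotype) and 95% interval of the limma fit (bars) for the 12 measured relatives and partners of the 10 genes. Nr4a2 (0.83), Id2 (-0.74) and Bcl3 (-0.92) lie away from 0 and none of the 12 passed adjustment over all genes.

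Other genes that TCR signals induce in thymocytes were measured for 17 of 24 listed. In limma 0 passed the adjusted threshold, 5 had both USP8ff_CD4Cre arrays higher and 3 both lower (24.3% and 16.3% of all genes), and the median difference was 0.04, beside 0.02 over all genes. Ubash3b, a phosphatase that dampens TCR signalling, had -0.60 and -0.88 in the USP8ff pools and -1.27 and -1.44 in the USP8ff_CD4Cre pools, a difference of -0.62 ± 0.14 (adjusted p = 0.66 in limma). Trib1, a pseudokinase gene, had 0.15 and 0.12 in the USP8ff pools and 0.34 and 0.63 in the USP8ff_CD4Cre pools, a difference of 0.35 ± 0.14 (adjusted p = 0.67 in limma) that was 0.20 without USP8ff_CD4Cre replicate 2.

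Most of the genes listed for the upstream routes were measured. The arrays read their RNA, and the activity of the routes was not measured. Of the listed kinases and factors that lead through Ras and ERK to serum response factor, 19 of 21 were measured and 0 passed the adjusted threshold in limma. Their median difference was 0.09, beside 0.02 over all genes, with 7 genes higher and 1 lower without overlap (24.3% and 16.3% of all genes). Mapk3, which encodes ERK1, had 1.37 and 1.05 in the USP8ff pools and 1.46 and 1.55 in the USP8ff_CD4Cre pools, a difference of 0.30 ± 0.15 (adjusted p = 0.70 in limma). Leaving out 1 USP8ff pool at a time gave 0.14 and 0.46 for Mapk3.

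Of the listed calcium and NF-kB genes, 17 of 18 were measured, with a median of -0.04 and 0 past the adjusted threshold in limma. Ikbkg, the regulatory subunit of the IkB kinase, had -0.18 and -0.09 in the USP8ff pools and -0.53 and -0.58 in the USP8ff_CD4Cre pools (difference -0.42 ± 0.11, and -0.26 with the mean of its probes). Relb, an NF-kB subunit, had 0.26 and 0.42 in the USP8ff pools and 0.73 and 0.87 in the USP8ff_CD4Cre pools (difference 0.46 ± 0.12). Both Ikbkg and Relb had an adjusted p of 0.66 in limma. The E proteins and their DP targets, 9 of 9 measured, had a median of -0.06, with 2 genes higher and 3 lower without overlap (24.3% and 16.3% of all genes). In that list Rag2, a subunit of the recombinase, had a difference of -0.33 ± 0.13 and Rag1, the other subunit, of -0.19 ± 0.11, neither past the adjusted threshold in limma. With normexp background correction the Rag2 difference was -0.17, and without USP8ff replicate 2 it was -0.20.

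Markers of mature single-positive thymocytes, the cells that arise from positively selected DP cells, were counted in the same way. Of 11 listed, 10 were measured, and 0 passed the adjusted threshold in limma. For 3 of them, Il7r, Gimap4 and Itgae, the USP8ff arrays alone passed the filter on dim probes, so their lower signal in USP8ff_CD4Cre was fixed by the filter. Of the 7 read well above background on all arrays, 5 were lower and 1 higher in USP8ff_CD4Cre without overlap, beside 16.3% and 24.3% of all genes, and their median difference was -0.46. Ccr7, a chemokine receptor of cells entering the medulla, had -0.51 and 0.03 in the USP8ff pools and -1.29 and -1.66 in the USP8ff_CD4Cre pools, a difference of -1.24 ± 0.23. The summed linear signal of the 10, which the brightest genes set, was 181.8 and 204.6 in the USP8ff pools and 179.3 and 191.4 in the USP8ff_CD4Cre pools. Markers of other cells that a sort could carry were measured less completely, with 0 past the adjusted threshold in limma. The counts were 4 of 7 for double-negative thymocytes, 2 of 7 for B cells, 7 of 14 for macrophages and dendritic cells, 5 of 10 for NK and innate-like T cells, 5 of 8 for regulatory T cells, 3 of 7 for erythroid cells and 2 of 9 for thymic stroma. Among those read well above background on all arrays, 3 of 6 macrophage and dendritic cell markers, 2 of 4 markers of NK and innate-like T cells and 3 of 4 of regulatory T cells were lower in USP8ff_CD4Cre without overlap, against 16.3% of all genes. The other 2 of the NK and innate-like T cell markers were higher without overlap. The summed linear signal of the macrophage and dendritic cell list was 3.68 and 3.93 in the USP8ff pools and 2.72 and 2.87 in the USP8ff_CD4Cre pools. That of the NK and innate-like T cell list was 4.28 and 4.37 in the USP8ff pools and 3.94 and 5.29 in the USP8ff_CD4Cre pools. The brightest gene by far, Gzma, named after its values were seen, weighed most in that sum and was among those higher without overlap. The regulatory T cell list summed to 18.4 and 21.8 in USP8ff against 15.0 and 15.2 in USP8ff_CD4Cre. The brightest genes set the sums of these lists, which include markers not well above background on all arrays. Cd79a, a B cell receptor component, and Csf1r and Itgam, which define macrophages, did not pass the filter on dim probes. Neither did Foxp3, Il2ra and Ctla4 of the regulatory T cell list. The part of any of these cells in the signals of the 10 genes was not tested.

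The authors' deposited table, which compares the genotypes, holds 78 probes (0.19% of those with a value on every array), all with an absolute fold above 2 and a p-value of at most 0.050. None of the 11 probes of the 10 genes is among them, and with so short a list this says little about these genes.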

How the data were processed

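Per the labels, 500 ng of RNA was turned into Cy3-labelled cRNA and hybridised, 1 sample to an array. Spot intensities were deposited as scanner output of Feature Extraction 10.7.3.1, per the file headers, not normalized between arrays. The authors' deposited comparison table holds a fold (a ratio) and a p-value per probe; the test behind it is not stated in these sources. Another deposited table has 4 columns of per-sample values that match no label, and it was left aside.

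Processed signals of 43379 non-control spots were taken to log2 relative to the 75th percentile of the array. Leaving out outlier spots removed 17 of 41174 probes, and a probe's spots were averaged. A probe was kept (19038 were) when both arrays of a genotype, or of both, read it well above background, and the one with the highest mean stood for its gene (13062 genes). The 2 genotypes entered limma 3.58.1 (R 4.3.3; lmFit, eBayes, two-sided), with Benjamini-Hochberg adjustment over all genes and a threshold of 0.05. The fit was run on simulated data with noise independent between arrays, as a check that set differences were recovered on average. No rate of calls in these data follows from that check. Positions are those of the scanner files (mm9), and annotation of that build was not used here. Promoter sequences came from RefSeq (GRCm38.p6).

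The genes and lists were chosen with earlier results of these data known. Named genes were all 10, Usp8, up to 2 genes of each pathway list with the smallest unadjusted p, and at most 2 per marker list, the first measured; any other is said to be chosen later. Some items that the rule gave are not reported here. The alternatives changed the scaling (quantile, median), the background (normexp, offset 50), the filter (none, or all arrays), the handling of several probes (mean, or each probe), the model (replicate block, eBayes trend) and the arrays (each left out).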

Additional observations from a re-analysis of the deposited data

How the results depend on the processing

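Over 13 alternatives the count of genes past the adjusted threshold stayed at 0 in limma, and 0 of 130 values of the 10 genes passed it, the smallest adjusted p being 0.51. The sign turned in 7 of these 130. Quantile normalization gave -0.049 for Cd5 and 0.027 for Nfkbid. With each array left out in turn, values ranged from -0.21 to 0.11 for Egr1, -0.62 to 0.095 for Egr3 and -0.016 to 0.0060 for Nfkbid without changing which genes passed; the ranges were -0.38 to -0.0018 for Egr2, -0.58 to -0.076 for Nab2 0.054 to 0.32 for Nr4a1, -0.28 to -0.0056 for Itm2a, 0.021 to 0.17 for Id3, 0.025 to 0.12 for Cd5 and 0.032 to 0.080 for Cd69. With normexp background the Egr3 value was -0.097. Of 220 values of 17 other genes that the naming rule gave or that were added to it, 4 turned, all of Cd8a, a DP marker with a difference of 0.015: -0.10 after quantile normalization, -0.014 with normexp background, and -0.085 to 0.12 with an array left out. Counts at an unadjusted p under 0.05 ran from 418 without USP8ff_CD4Cre replicate 2 to 1338 with the replicate block, beside 970. The labels do not say that replicate numbers pair the pools; deviations of same-numbered pools correlated at 0.32 over genes, and the block called 0 genes. With no filter on dim probes the median of all genes was -0.13. The cause of these shifts was not tested. With 2 pools per genotype the number of arrays limits the precision.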
